A study of Mus musculus with 8 samples.

Results

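Unannotated divergent starts are RNA 5' ends read by CAGE that lie just upstream of a protein-coding gene, on the strand opposite to it, where the annotation places no transcript start. They were chosen by position alone. A CAGE cluster was a member if its dominant TSS (the base with the most 5' ends in the cluster) was more than 500 bp from every same-strand transcript start, outside every same-strand gene, and within 1000 bp upstream of the 5'-most start of a protein-coding gene on the other strand, with GENCODE release M21 on mm10. By this rule 687 of 32857 clusters in E14, 693 of 33005 in Pwwp2a/b DKO clone A1 and 691 of 32870 in DKO clone C7 were members. That is 2.09% (95% Wilson interval 1.94 to 2.25), 2.10% (1.95 to 2.26) and 2.10% (1.95 to 2.26) of all clusters. They lay opposite 582, 585 and 583 coding genes.

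The cells were E14, a mouse embryonic stem cell (mESC) line grown in serum with LIF on gelatine. Wild-type E14 was compared with A1 and C7, each a single clone of E14 cells that lacks both PWWP2A and PWWP2B, a pair of proteins that bind histone H3 trimethylated at lysine 36 and carry a histone deacetylase subcomplex. CAGE-seq, which captures the 7-methylguanosine cap and reads the 5' end of the RNA, was run on nuclear RNA from 3 E14, 2 A1 and 3 C7 libraries, and the authors merged the libraries of each line before they called clusters. Every line is therefore a single set of positions with no expression value, no replicate error and no read depth, and no test was run. Intervals cover counting error only, and neither a clone effect nor a difference in depth can be told apart from an effect of the knockout. The stem cell identity of the lines was checked by position, and all 15 embryonic stem cell markers had a cluster at an annotated start in each line. Of the markers of other cell types, 4 of 7 for primitive endoderm and 2 of 4 for neural cells had one in each line, as did 3 (E14), 4 (A1) and 4 (C7) of 8 for fibroblasts, with none of 4 for mesoderm (T, Eomes, Mesp1 and Mixl1). Pwwp2a had 1 cluster at its annotated starts in each line and Pwwp2b had 0 in each, so positions do not check the knockouts.

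Most active mammalian promoters are occupied by a pair of RNA polymerase II complexes that face away from each other. The polymerase on the gene's strand makes the mRNA, and the other makes a short, capped upstream antisense RNA (a PROMPT or uaRNA), which usually meets an early polyadenylation signal, is cut and is degraded by the nuclear exosome. Because these RNAs are kept in the nucleus and turn over fast, they are easier to see in nuclear RNA than in whole-cell RNA, and annotations hold few of them. A bidirectional promoter can also serve a pair of annotated genes head to head, and such promoters were used here for comparison.

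The sequences below show the stretch between a coding gene's start and the divergent start at members on which later results turn. Each is read 5' to 3' on the strand of the divergent RNA, from the first base upstream of the gene (the nearer of its GENCODE and RefSeq starts) to 15 bases past the divergent TSS that lay farthest from the gene, from RefSeq promoter sequence of GRCm38.p6. Capitals mark the dominant TSS and the base before it in each line in which the cluster was present. Stretches were taken only where they held no GENCODE transcript start and no RefSeq start and fell within a RefSeq promoter window. Other members named below were left out for this reason or for length. Overlap with exons was not tested.
Pou5f1, chr17:35505899-35506017, minus strand: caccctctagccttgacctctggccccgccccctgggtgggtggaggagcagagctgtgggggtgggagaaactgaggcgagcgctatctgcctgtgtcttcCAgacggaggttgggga
Sall1, chr8:89044163-89044329, plus strand: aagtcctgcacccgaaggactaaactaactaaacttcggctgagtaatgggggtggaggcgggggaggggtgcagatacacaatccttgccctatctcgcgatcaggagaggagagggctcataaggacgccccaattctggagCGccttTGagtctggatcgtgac
Faf1, chr4:109676482-109676587, minus strand: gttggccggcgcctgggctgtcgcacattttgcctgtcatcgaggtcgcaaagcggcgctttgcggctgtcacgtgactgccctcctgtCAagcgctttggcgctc
Selenot, chr3:58576543-58576635, minus strand: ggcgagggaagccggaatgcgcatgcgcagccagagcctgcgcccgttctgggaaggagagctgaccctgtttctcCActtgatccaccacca
Bmp4, chr14:46390670-46390751, plus strand: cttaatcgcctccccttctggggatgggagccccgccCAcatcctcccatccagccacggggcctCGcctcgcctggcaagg
Elob, chr17:23829137-23829272, plus strand: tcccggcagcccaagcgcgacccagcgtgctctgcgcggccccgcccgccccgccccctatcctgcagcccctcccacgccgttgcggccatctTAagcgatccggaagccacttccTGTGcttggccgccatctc
Dnaja2, chr8:85555362-85555482, plus strand: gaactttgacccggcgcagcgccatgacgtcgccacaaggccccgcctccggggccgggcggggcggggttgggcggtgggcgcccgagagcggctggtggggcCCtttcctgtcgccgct
Bod1, chr11:31671886-31672049, plus strand: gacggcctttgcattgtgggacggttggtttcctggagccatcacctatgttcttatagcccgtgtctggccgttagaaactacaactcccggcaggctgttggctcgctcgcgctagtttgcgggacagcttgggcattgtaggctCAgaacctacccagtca
Vapa, chr17:65613556-65613675, plus strand: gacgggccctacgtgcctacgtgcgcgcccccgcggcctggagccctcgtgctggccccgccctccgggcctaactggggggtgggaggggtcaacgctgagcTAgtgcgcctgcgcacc
At Pou5f1, the gene of the pluripotency factor OCT4, the same CA step was used in all lines. At Sall1, a zinc finger transcription factor of stem cells, the CG step is that of E14 and the TG step that of both clones. At Bmp4, the gene of a secreted signalling ligand, the CA step nearer the gene is that of both clones and the CG step that of E14, while at Elob, which encodes elongin B, the TA step nearer the gene is that of E14, and the TGTG run holds the step of C7 followed by that of A1. Faf1 and Selenot had the cluster in both clones and not in E14, Bod1 in E14 and A1, and Vapa in E14 and C7.

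A RefSeq promoter window held the dominant TSS and the base before it for 359 of the 670 E14 members on nuclear chromosomes (53.6%). Among these 359, 297 (82.7%, Wilson interval 78.5 to 86.3) started on a pyrimidine-purine step, that is CA, CG, TA or TG with the second base as the TSS. CA was used 119 times (33.1%), TG 76 times (21.2%), CG 65 times (18.1%) and TA 37 times (10.3%). Over all positions and both strands of all RefSeq promoter windows, not only those that held a member, 21.6% of steps were of this kind and 6.84% were CA. All sense clusters of the same genes, covered at 462 of 902, had a pyrimidine-purine step in 371 (80.3%, 76.4 to 83.7). These counts describe the covered members and not the rest. Only 76.8% of the genes opposite a member and 75.03% of all coding genes with a sense cluster had a RefSeq window at their 5'-most start, below the 80% set as a minimum, so GC content and promoter motifs were not compared.

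Divergent starts crowded close to the gene. In E14 their median distance from the 5'-most start was 165 bp, with quartiles at 99.5 and 287 bp, and 530 of 687 (77.1%) lay within 300 bp. The medians were 165 bp in A1 and 165 bp in C7, with 76.8% and 76.8% within 300 bp. In E14, 178 members lay 1 to 100 bp upstream, 227 lay 101 to 200 bp upstream and 125 lay 201 to 300 bp upstream, and only 8 lay beyond 900 bp. Followed to 3 kb with the other parts of the rule kept, the number of unannotated opposite-strand clusters in successive 500-bp steps was 619, 68, 46, 33, 29 and 16 in E14. The limit of 1000 bp therefore cuts a tail and not a peak. The plot of positions in 25-bp bins shows the same shape in each line.

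**Figure D1:**
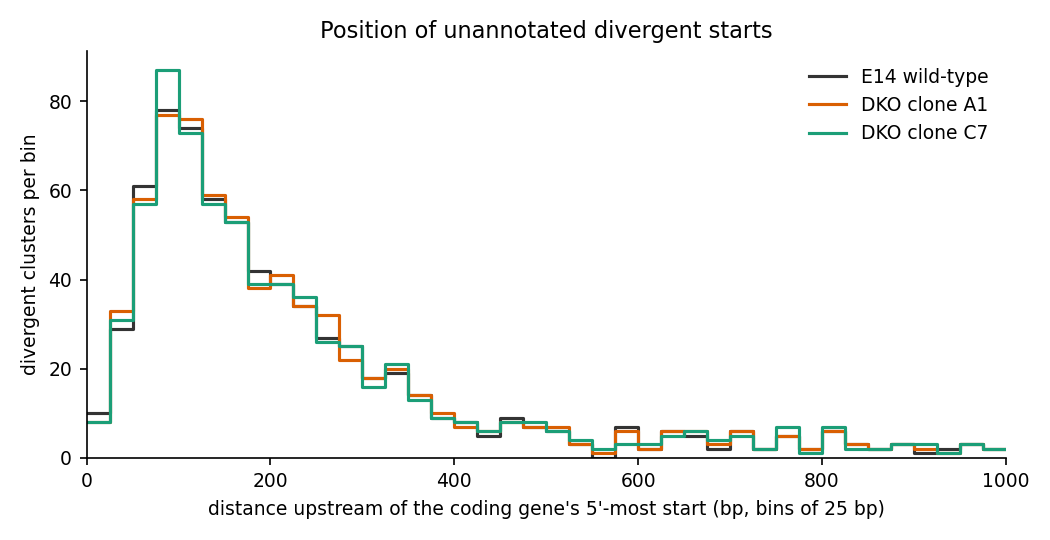
Number of unannotated divergent clusters (y axis) against the distance of their dominant TSS upstream of the coding gene's 5'-most start in bp (x axis, bins of 25 bp), as 1 line per cell line. In E14 the fullest bin, from 76 to 100 bp, holds 78 clusters, and the 3 outlines run close together.

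The members nearest to a gene were those of Mpst, 4 bp upstream, Zcchc9, 5 bp upstream, and Gm3667, 7 bp upstream, at the same base in every line. Mpst encodes a sulfurtransferase and lies head to head with its paralog Tst, and its member was 505 bp from the Tst start, just past the limit for an annotated start. At Ccdc47 a cluster 101 bp upstream was 481 bp from a same-strand start and so was no member. At the other edge, the members farthest from their genes in E14 were those of Olfr1311 (999 bp), Snapc5 (997 bp) and 1190002N15Rik (959 bp). The clusters just outside were those at Nectin2 (1004 bp), Mex3a (1007 bp) and Rfx4 (1007 bp).

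A sense cluster, on the gene's own strand within 500 bp of its 5'-most start, accompanied 659 of 687 members in E14, 669 of 693 in A1 and 663 of 691 in C7. The members without one included those of Gapdh, Gsk3b and Gtf2a1. From the divergent dominant TSS to the nearest sense dominant TSS the median spacing in E14 was 182 bp, with quartiles at 118 and 290.5 bp. It was 187 bp in A1 and 183 bp in C7. In only 6, 7 and 6 pairs did the sense TSS lie upstream of the divergent TSS, so that the RNAs would run towards each other. The edges of the clusters in a pair were a median of 137 bp apart in E14, and in 5 pairs of each line the clusters overlapped on opposite strands.

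Head-to-head starts of annotated coding genes were spaced somewhat more widely, with a median of 211 bp (quartiles 121 and 356 bp, 1881 pairs) in E14. Their median was 212 bp in A1 and 212 bp in C7. A pair here is a cluster with its nearest sense cluster opposite, so the same head-to-head genes can be counted from each side. Annotated noncoding divergent starts had a median of 175.5 bp (346 pairs) in E14, and 179 bp in each clone. The lower quartiles of the 3 classes in E14 lay close together, at 118, 121 and 112.25 bp, and the upper quartiles were 290.5, 356 and 291.75 bp.

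**Figure D2:**
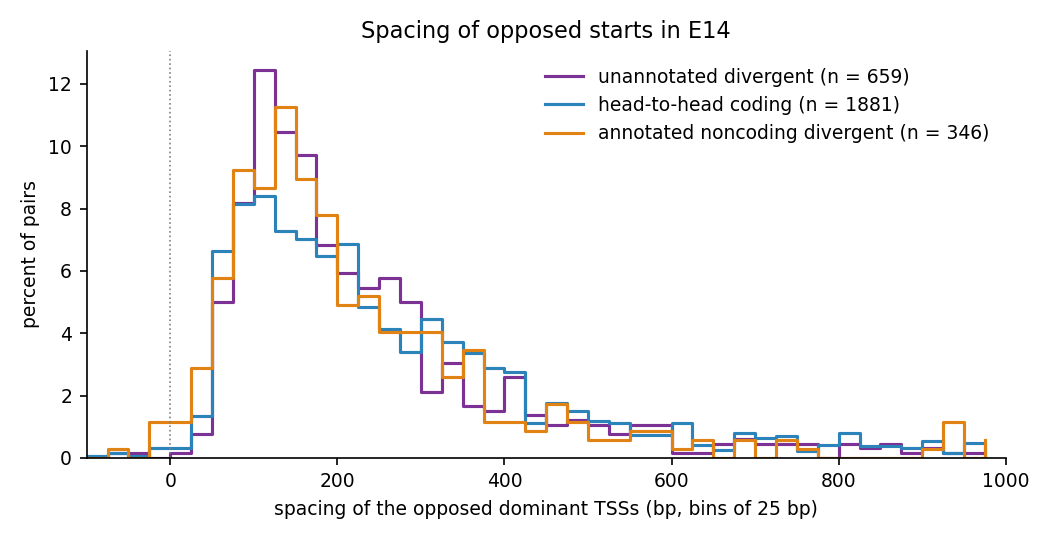
Percent of pairs (y axis) against the spacing in bp between the upstream and the sense dominant TSS in E14 (x axis, bins of 25 bp), for members, head-to-head coding starts and annotated noncoding divergent starts. The dotted line marks 0, right of which the starts point away from each other, and the members peak between 100 and 125 bp. Each upstream cluster gives a pair, so the same head-to-head genes can be counted from each side.

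The divergent clusters were narrow beside the sense clusters they faced. Here and below, unless stated, the sense cluster of a gene is the one nearest to its member, and a gene may have others. The interquantile width, which spans quantiles 0.1 to 0.9 of the 5' ends in a cluster, had a median of 9 bp in each line, with quartiles at 4 and 20.5 bp in E14. The sense clusters of the same genes had a median of 30.5 bp in E14, 31 bp in A1 and 32 bp in C7. Within pairs the sense cluster was the wider in 478 of 659 (72.5%, Wilson interval 69.0 to 75.8) in E14, 499 of 669 (74.6%) in A1 and 482 of 663 (72.7%) in C7. The median of the members was below that of the sense clusters on 20 of 20 chromosomes in each line, and below that of head-to-head coding starts, 27 bp in E14 and 28 bp in each clone, on 20 of 20 as well.

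Annotated noncoding divergent starts fell between, with medians of 15, 15 and 14.5 bp, and were wider than the members on 18, 19 and 17 of 20 chromosomes. Unannotated intergenic starts within 10 kb of a gene were narrower than the members, with medians of 6, 6 and 7 bp, on 17, 17 and 16 of 20 chromosomes. In E14, 53.9% of members (50.1 to 57.6) were 10 bp wide or less, beside 21.4% of their sense clusters and 46.4% of all clusters, and 18 members were a single base.

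**Figure D3:**
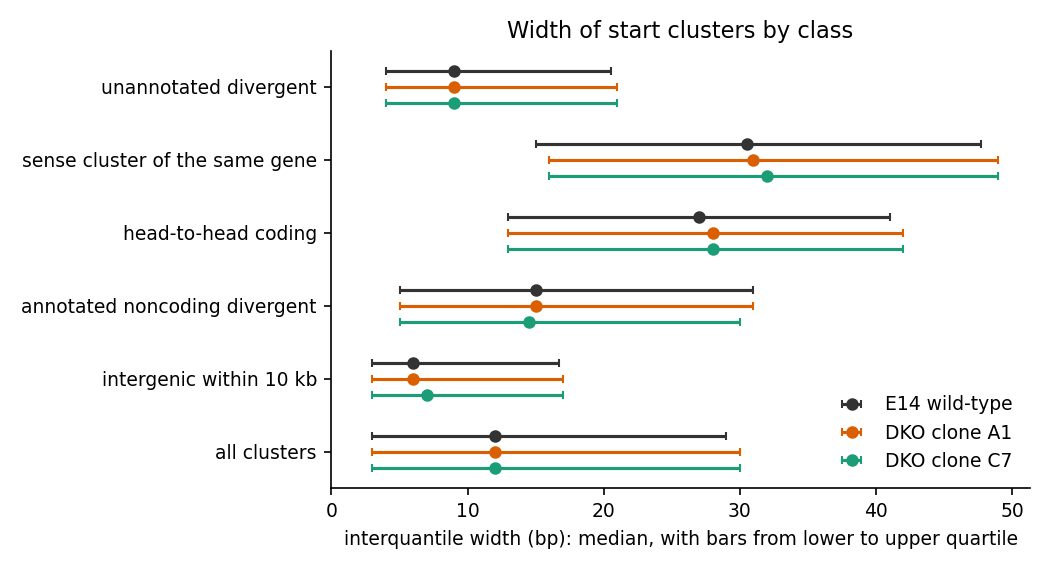
Interquantile width in bp (x axis) of start clusters in 6 classes (y axis), with the median as a point and a bar from the lower to the upper quartile, for each cell line. The members, at a median of 9 bp, sit below the sense clusters of the same genes at 30.5 to 32 bp and above intergenic starts within 10 kb of a gene at 6 or 7 bp.

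Some members were broad. The widest in E14 on a nuclear chromosome lay opposite Triml2, with an interquantile width of 72 bp in E14, 72 bp in A1 and 74 bp in C7. Opposite Dnaja2, which encodes a co-chaperone of HSP70, the widths were 69, 61 and 69 bp, above the 55 bp of its own sense cluster. Opposite Ino80, the ATPase of the INO80 chromatin remodelling complex, they were 69, 66 and 66 bp, with a sense cluster of 27 bp. At Dnaja2 the dominant TSS, 123 bp upstream on a CC step, was the same base in all lines.

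In E14, 503 of 582 genes had a single member, 63 had 2, 11 had 3, 2 had 4, 1 had 5 and 2 had 6. The genes with the most were mt-Nd1 and mt-Nd5 with 6 each, Rnf125 with 5, and 1190002N15Rik and Triml2 with 4 each, in every line. Rnf125 encodes a ubiquitin ligase of innate immunity. Its members lay 113 to 899 bp upstream, in a group of 2 near the gene and a group of 3 beyond 800 bp. Cstf3, a subunit of the cleavage stimulation factor that acts at polyadenylation sites, had 3 members, 207, 316 and 375 bp upstream in E14.

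Of the coding genes with a sense cluster at the 5'-most start, 557 of 9863 (5.65%, Wilson interval 5.21 to 6.12) had a member in E14, 562 of 9868 (5.70%) in A1 and 558 of 9849 (5.67%) in C7. In E14 a further 1356 genes (13.7%) had a head-to-head coding start upstream, 267 (2.71%) an annotated noncoding start and 56 (0.568%) a start inside another gene, and 7627 (77.3%) had no opposite-strand cluster within 1000 bp. The sense clusters of genes with a member were somewhat broader and more numerous in each line, with no test run. The widest sense cluster of a gene had a median interquantile width of 36 bp in the 553 nuclear genes with a member and 30 bp in the genes with no opposite-strand cluster, and the mean number of sense clusters was 1.63 and 1.40. In A1 the widths were 37 and 31 bp, and in C7 38 and 31 bp. Gene length differed little, with medians of 22455 and 24414 bp in E14. Whether expression moved with these differences was not tested, since the clusters carry no level.

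Lists of genes by function, chosen with earlier results of these data known, are set beside the share over all coding genes with a sense cluster, 5.65% in E14, and nothing is called particular to a list from its count. Among pluripotency genes 5 of 28 (17.9%, Wilson interval 7.88 to 35.6) had a member in E14, namely Klf5, Mybl2, Pou5f1, Sall1 and Sox2, and 6 of 28 in each clone, where Rif1 was added. The Pou5f1 member, on the minus strand of chromosome 17, had its dominant TSS at 35505914 in every line, 104 bp upstream of the gene and 144 bp from the sense dominant TSS. Its interquantile width was 8 bp and that of the sense cluster 31 bp. The Sox2 member was 643 bp upstream of the 5'-most annotated start in E14 and A1 and 637 bp in C7, and 234, 234 and 229 bp from the sense dominant TSS. SOX2 is the partner of OCT4 on DNA, and its gene lies inside Sox2ot, a long noncoding gene on the same strand as Sox2.

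Klf5, a Krüppel-like factor of naive mESCs, had its member 209 bp upstream in E14 and A1 and 202 bp in C7, 8 bp wide in each and about as narrow as its sense cluster of 7, 8 and 8 bp. Mybl2, a MYB-family activator of cell cycle genes, had its member 273 bp upstream in all lines, 13 bp wide and facing a broad sense cluster of 72 bp in E14. The Sall1 member was 146 bp upstream in E14 and 152 bp in both clones, on the steps printed above. These 5 members were between 7 and 13 bp wide in E14 and faced sense clusters of 7 to 72 bp.

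Of 14 genes for PWWP2A/B and NuRD partners with a sense cluster, 1 had a member (7.14%), which was Mbd3, the methyl-CpG-binding domain subunit of NuRD. That member lay 287 bp upstream in each line, 9 bp wide. Among genes for H2A.Z and its exchange complexes the count was 3 of 12 (25%, 8.89 to 53.2), made up of Anp32e, a chaperone that removes H2A.Z, Ino80 and Ruvbl1, an AAA+ ATPase of the exchange complexes. The Anp32e member started 10 bp from the start of Gm46815, a long noncoding RNA that RefSeq lists and GENCODE M21 does not. The Ruvbl1 member was 138 bp upstream in each line. Polycomb genes gave 2 of 16 (12.5%), Mtf2 and Suz12, and genes for H3K36 methylation and cryptic initiation 0 of 15, which allows a share of up to 20.0% (the limit given for each count of 0 is 3 counts of the total, not the Wilson bound). This 0 became 2 when only coding genes counted as same-strand annotation and 1 with any coding transcript start.

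Genes for RNA surveillance, which include the nuclear exosome and its adaptors, gave 0 of 33 in every line, and a count of 0 there allows up to 9.09%. In E14 it became 1 under both of those settings and with annotated starts over 100 bp away. Genes for polyadenylation and termination gave 3 of 16 (18.8%, 6.59 to 43.0). These were Clp1, a kinase in the cleavage machinery, with its member 327 bp upstream in every line, Cstf3, and Xrn2, the exonuclease that helps polymerase II to terminate, with its member 57 bp upstream in E14 and A1 and 68 bp in C7. Chaperone genes gave 5 of 26 (19.2%, 8.51 to 37.9), among them Hspa5 and Hspa8, whose members were 196 and 210 bp upstream at the same base in all lines.

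Cytosolic ribosomal protein genes gave 11 of 76 (14.5%, 8.28 to 24.1), mitochondrial ribosomal protein genes 4 of 70 (5.71%), and both counts were the same in each line. Rpl13a and Rpl14 had members 206 and 46 bp upstream in E14. Their sense clusters were 4 and 5 bp wide and the members 5 and 14 bp, so that here the divergent cluster was the wider. Zinc finger genes named Zfp or Znf gave 18 of 295 (6.10%), replication-dependent histone genes 5 of 58 (8.62%), oxidative phosphorylation genes 6 of 87 (6.90%), DNA replication genes 3 of 37 (8.11%), DNA repair genes 4 of 32 (12.5%), proteasome genes 3 of 38 (7.89%), spliceosome genes 3 of 35 (8.57%), Mediator genes 3 of 27 (11.1%) and tRNA synthetase genes 2 of 32 (6.25%). Of 50 developmental transcription factor genes only 6 had a sense cluster, and 1 of these, Foxd3, had a member.

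The replication and repair genes with a member included the licensing pair Cdt1 and Gmnn, an MCM loading factor and its inhibitor. Cdt1 had 2 members, 204 and 229 bp upstream in every line. The Gmnn member was 106 bp upstream in E14 and A1 and 101 bp in C7, and that of Mcm5, a subunit of the replicative helicase, 229 bp in E14 and A1 and 213 bp in C7. At Mcm5 the member was about as broad as its sense cluster, 24 and 23 bp in E14. Msh6, of mismatch repair, had a member 178 bp upstream in each line whose width was 33 bp in E14 and 41 bp in both clones.

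Some members were broader than the nearest sense cluster, which need not be the widest of the gene. Opposite Med26, a Mediator subunit, the member was 46 bp wide in E14 and the sense cluster 17 bp, and opposite Srsf4, which encodes an SR splicing factor, the wider of its members was 30 bp and the sense cluster 2 bp. The same held for Tra2b, a splicing regulator, at 30 and 7 bp, for the linker histone gene Hist1h1a at 31 and 3 bp, and for Foxd3, a forkhead factor of stem cells and neural crest, at 36 and 8 bp. Opposite Sf3b1, a core subunit of the U2 snRNP, the order was the usual one, with 2 bp for the member and 96 bp for the sense cluster.

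**Figure D4:**
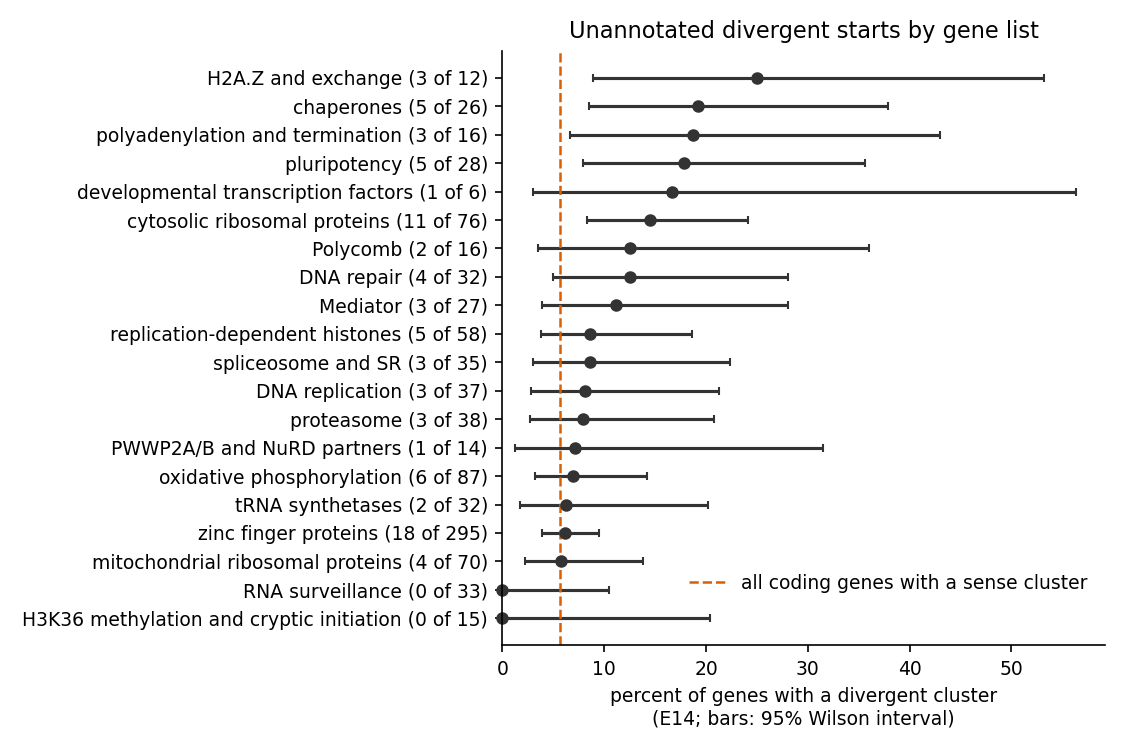
Percent of coding genes with a sense cluster in E14 that had an unannotated divergent cluster (x axis) in 20 gene lists (y axis, with the counts), with 95% Wilson intervals as bars and the share over all such genes, 5.65%, as a dashed line. The lists range from 0 of 33 to 3 of 12. The intervals for H2A.Z and exchange, chaperones, polyadenylation and termination, pluripotency and cytosolic ribosomal proteins lie to the right of the dashed line. The others span it. The lists were chosen with earlier results known, and the intervals make no allowance for 20 lists. Their place beside the line is therefore no test, and no list is called particular.

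The lines held nearly the same divergent starts. Merged across lines, the members made 698 loci opposite 589 genes, and 677 of them (97.0%, Wilson interval 95.4 to 98.0) were present in all 3 lines, beside 97.4% of all 33324 merged clusters of the series. At 668 loci the start and end of the cluster were the same in all lines, with no share over all clusters to set beside this count. Whether the bounds of a line were drawn from its own reads alone was not tested. Presence in all lines is therefore not taken as a separate finding of each line. Clusters of both clones that were missing from E14 numbered 9 (1.29%, 0.680 to 2.43), beside 0.444% over all merged clusters. This count rested on small clusters, and fell to 1 when clusters under 3 bp were left out and to 5 with an upstream window of 500 bp. No member was found in E14 alone, where 0 of 698 allows a share of up to 0.430%, beside 0.228% over all clusters. Further, 6 loci (0.860%) were in E14 and A1, beside 0.510% over all merged clusters, and 4 (0.573%) in E14 and C7, beside 0.471%. One locus was in A1 alone (at Calm2, 0.143% beside 0.651%) and one in C7 alone (at Hist1h2bm, 0.143% beside 0.321%).

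The 9 loci of both clones were small. They lay opposite Faf1, Fnbp4, Gcat, Gja1, Phc1, Rif1, Selenot, Zfp958 and mt-Nd2, and were 1 to 4 bp wide. The Faf1 cluster, 91 bp upstream of a gene for an ubiquitin-binding adaptor, was 4 bp wide in each clone and the widest of them. The Selenot cluster was a single base, 78 bp upstream, at the gene of an endoplasmic reticulum selenoprotein. At Fnbp4 and at Gja1, the gene of a connexin, another member was present in all lines, at 128 and 111 bp upstream in E14, so that the clones held a second cluster next to a shared one. Phc1 encodes a Polyhomeotic subunit of Polycomb complex PRC1, and its cluster was 762 bp upstream and a single base. Rif1, a regulator of replication timing and DNA end repair, had its cluster 677 bp upstream, 2 bp wide.

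The 10 loci missing from a single clone were of the same kind. Those of Azin2, Bod1, Ippk, Kansl2, Maz and Pgrmc2 were absent in C7 and those of Lmna, Rab11fip3, Spats1 and Vapa absent in A1. Their widths in E14 ran from 1 to 7 bp. The positions do not hold the reads behind a cluster, so the part of depth in these differences was not tested.

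Where a divergent cluster was present in a pair of lines, the dominant base within it was often another. Between E14 and A1 it differed by 1 bp or more in 208 of 683 members (30.5%, Wilson interval 27.1 to 34.0), beside 23.8% of all clusters. Between E14 and C7 it differed in 206 of 681 (30.2%, 26.9 to 33.8), beside 21.1%. Both comparisons share the E14 set. Between the clones A1 and C7 it differed in 210 of 686 (30.6%, 27.3 to 34.2), beside 25.2%. The clones thus differed from each other about as often as each differed from E14. At 378 of the 677 shared loci the dominant base was the same in all lines. There is no share over all clusters to set beside this count, so it is not read as a trait of the members.

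Unannotated intergenic starts within 10 kb of a gene came close to the members, with shares of 27.3% (25.9 to 28.8), 24.4% (23.0 to 25.8) and 29.5% (28.05 to 31.0) in the same order of pairs. These shares were below those of the members in each pair. The intervals of the classes overlap between E14 and A1 and between the clones, but not between E14 and C7. In most bins of width from 2 bp upwards the members had the higher share, but not in all. Among clusters of 2 to 5 bp it was 28.5% of members beside 24.9% of intergenic starts between E14 and A1. Among clusters of 11 to 20 bp the intergenic starts had the higher share between E14 and A1, at 34.3% beside 32.4% of members, and between the clones, at 33.5% beside 29.5%, but not between E14 and C7, at 28.9% beside 38.6%. A frequent change of the dominant base is therefore not particular to the members, though its share was somewhat higher there.

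For the sense clusters of the same genes the share was lower, at 89 of 561 (15.9%, 13.1 to 19.1) between E14 and A1, 88 of 562 (15.7%, 12.9 to 18.9) between E14 and C7 and 106 of 564 (18.8%, 15.8 to 22.2) between the clones. These intervals do not overlap those of the members. They treat clusters as independent, although members and sense clusters share genes and a gene may have several members. Overlap of intervals or its absence is therefore no test, here or for the other classes. For shifts of at least 5 bp, the members' share fell to 15.4% (12.9 to 18.3), 15.6% (13.0 to 18.5) and 15.2% (12.7 to 18.0), beside 12.6%, 11.3% and 13.1% of all clusters. The sense clusters then had 10.3% (8.08 to 13.1), 11.03% (8.70 to 13.9) and 12.8% (10.3 to 15.8), and their intervals overlap those of the members in each pair. Intergenic starts within 10 kb had 13.6%, 12.2% and 13.7%. At 1 bp or more the share was also higher for members than for sense clusters in each of 5 bins of interquantile width from 2 bp upwards, in all 3 pairs of lines. Among clusters of 2 to 5 bp, 28.5% of 239 members and 14.3% of 63 sense clusters differed between E14 and A1, and among those of 21 to 40 bp, 36.3% of 135 and 15.3% of 189. Between E14 and C7 the same shares were 26.7% and 7.94%, and 28.1% and 13.2%. When a member's base differed, the median shift was 5 bp in either clone, and in A1 94 moved downstream along the divergent RNA and 114 upstream, and in C7 98 and 108.

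**Figure D5:**
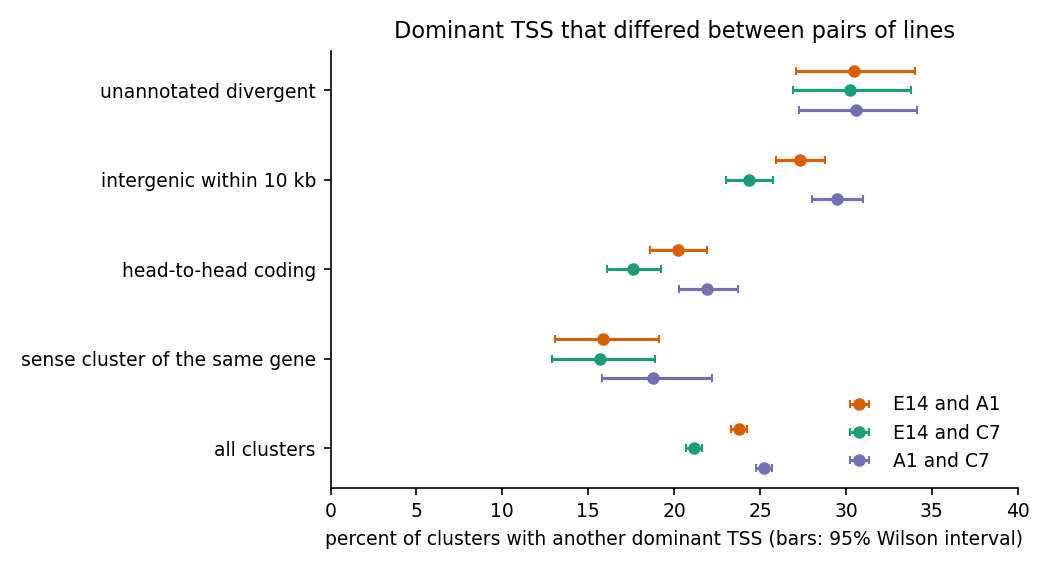
Percent of clusters found in a pair of lines whose dominant TSS differed by 1 bp or more (x axis), in 5 classes of clusters (y axis), with 95% Wilson intervals as bars and 1 colour for each pair of lines. Members lie near 30% in all 3 pairs and the sense clusters of the same genes between 15.7% and 18.8%, with intergenic starts within 10 kb next to the members at 24.4% to 29.5%.

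The largest shifts with the same direction in both clones were at Clptm1l, Pdia4, Bmp4, Elob and Acp6, chosen by the smaller of the shifts in the clones, which share their E14 reference. Acp6 is the first by name of 4 genes whose smaller shift was 20 bp, with Mapk15, Pias2 and Rnf4. At Clptm1l, which encodes a membrane protein, the dominant TSS was 68 bp upstream of the gene in E14 and 105 bp in each clone, at opposite ends of a 38-bp interquantile region that was the same width in all lines. At Pdia4, a disulfide isomerase of the endoplasmic reticulum, it was 310 bp upstream in E14 and 340 bp in each clone, and the width was 43, 34 and 34 bp. At Bmp4 it went towards the gene, from 67 bp to 39 bp in each clone, with a width of 29 bp throughout. At Elob it was 96 bp upstream in E14, 121 bp in A1 and 119 bp in C7, and at Acp6, a phosphatase of lysophosphatidic acid, 193, 164 and 173 bp. At Clptm1l, Bmp4 and Elob, whose width was 26 bp in each line, the width did not change and another base within the cluster had the most 5' ends.

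The share of clusters that widened was lower for members than over all clusters. In E14 the whole cluster had a median width of 10 bp for members, 65 bp for their sense clusters and 16 bp for all clusters. The interquantile medians were 9, 30.5 and 12 bp in the same order. The shares below were not split by width, so the part of the room left to widen was not tested. The interquantile region was wider in A1 than in E14 in 84 of 683 members (12.3%), beside 20.3% of all clusters, and narrower in 57 (8.35%), beside 10.5%. In C7 it was wider in 80 of 681 (11.7%), beside 18.5%, and narrower in 55 (8.08%), beside 10.6%. From A1 to C7 it was wider in 68 of 686 (9.91%), beside 14.7%, and narrower in 64 (9.33%), beside 16.4%. The sense clusters of the same genes were wider than in E14 in 210 of 561 (37.4%) in A1 and in 194 of 562 (34.5%) in C7. Unannotated intergenic starts within 10 kb widened about as rarely as the members, in 13.5% (E14 to A1), 12.1% (E14 to C7) and 9.44% (A1 to C7), so a low share of widening is not particular to the members either.

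Some of the members carry a name in another annotation. Of the 698 loci, 71 (10.2%) lay within 500 bp of a same-strand gene start in RefSeq, of which 62 were long noncoding RNAs and 9 protein-coding genes. One of these is the Pou5f1 locus, 177 bp from the start of the long noncoding RNA Gm32362. On nuclear chromosomes 80 loci had a same-strand GENCODE gene start within 5 kb downstream, 34 of them protein-coding. Of all loci, 48 lay inside another gene on the opposite strand, among them the 3 members of Snapc5, which lie inside Rpl4.

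The mitochondrial genome gave 17 members in E14, 18 in A1 and 18 in C7, opposite mt-Nd1, mt-Nd2, mt-Co1 and mt-Nd5, which encode subunits of respiratory complex I and of cytochrome c oxidase. Both strands of this small circle are transcribed as long RNAs by another polymerase and cut into genes, and the members there lay inside neighbouring genes. The widest member of any kind was at mt-Nd5, 101 bp in E14, 107 bp in A1 and 92 bp in C7, followed in E14 by 85 bp at mt-Nd2. Without the mitochondrial genome the median distance in E14 was 162.5 bp and 78.7% lay within 300 bp.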

How the data were processed

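CAGE-seq libraries of nuclear RNA were made from E14 (3 libraries) and from the Pwwp2a/b DKO clones A1 (2) and C7 (3). Reads were aligned to mm10 by the authors with STAR 2.4.2a (per the labels), pooled by line, scaled to a power law and clustered in CAGEr. What was deposited is positions: cluster bounds, the dominant TSS and the interquantile region (quantiles 0.1 to 0.9). All deposited scores are 0, so neither level nor depth is known from the files.

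Clusters were classified against GENCODE M21 (GRCm38, the assembly of mm10) in Python 3.11.15 (SciPy 1.17.1, NumPy 2.4.6), and plotted in Matplotlib 3.10.9. Same-strand clusters that overlapped by 1 bp or more were matched between lines. Wilson intervals (95%) are given for shares. No p was calculated, because the clusters of a line do not replicate each other. The member rule sorted 1000 of 1000 simulated clusters, 400 of them members, as they were built. Lying inside a same-strand gene was not simulated apart from the start rule.

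The members and gene lists were chosen with earlier results of these data known. Named genes were those opposite starts that differed between lines, those with the most, widest, nearest, farthest or most shifted members, every pluripotency and PWWP2A/B or NuRD gene with a member, and up to 3 per other list in order of name. Ccdc47, Gapdh, Gsk3b and Gtf2a1 were named after their values were seen. Some items are not reported here.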

Additional observations from a re-analysis of the deposited data

How the results depend on the processing

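Of the values recomputed under other settings, 118 stayed within counting error (for a count of clusters, within 1.5 times) and 36 did not. Of these 36, 25 were higher and 11 lower. The values are counts, medians and shares without a direction, so none could reverse. With only coding genes as same-strand annotation, the divergent clusters numbered 1082, 1087 and 1085 (E14, A1 and C7, in this order throughout), and 8.67%, 8.70% and 8.68% of coding genes with a sense cluster had one. With any coding transcript start in place of the 5'-most, the numbers were 1057, 1060 and 1063 and the shares 7.34%, 7.41% and 7.39%. With annotated starts over 100 bp away the shares were 6.12% in E14 and 6.15% in C7. Leaving out clusters under 3 bp gave shares of 5.15%, 5.18% and 5.20%, a median width of 11 bp in each line, and 99.3% (E14), 99.5% (A1) and 99.5% (C7) of members found in both other lines. By the same dominant TSS these last were 55.0%, 54.5% and 54.7%. Measured from the sense dominant TSS, the median distance was 182, 187 and 183 bp.

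The count of 9 clusters in both clones and not in E14 fell to 5 with an upstream window of 500 bp and to 1 without clusters under 3 bp. Against a single clone, 4 E14 clusters were missing from A1 and 6 from C7. With a shift of at least 5 bp, the dominant TSS differed at 15.4% (E14 and A1), 15.6% (E14 and C7) and 15.2% (A1 and C7) of members, with the other classes of clusters given beside the main shares. The comparison of the clones with each other, the bins of width and the 5-bp shares of the other classes were chosen after seeing the data. For single gene lists, 168 counts stayed within 1.5 times and 12 did not, 11 of them higher, and 5 of the 12 were for the lists whose count was 0: RNA surveillance became 1 with annotated starts over 100 bp away, with coding annotation only and with any coding transcript start, and H3K36 methylation and cryptic initiation became 2 and 1 under the latter settings. No paired analysis was possible because the deposited clusters merge the libraries of each line.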

Other observations

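Divergent starts were spread over the nuclear chromosomes. Of the coding genes with a sense cluster in E14, the share with an unannotated divergent cluster ran from 12 of 360 on chromosome X (3.33%, Wilson interval 1.92 to 5.74) and 12 of 340 on chromosome 12 (3.53%, 2.03 to 6.07) to 61 of 800 on chromosome 11 (7.63%, 5.98 to 9.67). Of the 20 intervals, that for chromosome 11 alone leaves out the share over all such genes, 5.65%. This was looked at after the values were seen. No test was run, since the lines are single merged sets.

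Members lay on the plus strand 322 times and on the minus strand 365 times in E14, 320 and 373 times in A1, and 318 and 373 times in C7.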
